A study of Homo sapiens with 52 samples.

Results

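The AP-1 and immediate early genes described here are FOS, FOSB, FOSL1, FOSL2, JUN, JUNB, JUND, EGR1, ATF3 and MAFF. They were chosen by gene name, and all 10 were found among the 78894 genes with deposited values. Bulk mRNA sequencing covered 52 libraries in 18 groups from 3 established breast cancer cell lines, SUM159PT (17 libraries), MDA-MB-231 (18) and HS578T (17), all labelled claudin-low, a breast cancer class with little tight-junction protein. In the siRNA arm of each line, cells received 20 nM of siNRP1#3, siNRP1#5 or a control siRNA without a target (siNT), and RNA was taken 72 hrs later. In the shRNA arm, lentivirus delivered shNRP1#3, shNRP1#5 or a control hairpin without a target (shNT), puromycin removed cells that had not taken it up, and RNA was taken 48 hrs after plating. NRP1 encodes neuropilin-1, a co-receptor for semaphorins and growth factors. The #3 sequences target transmembrane NRP1 and the #5 sequences target both its transmembrane and soluble forms. siNRP1#5 and shNRP1#5 carry the same sequence, whereas siNRP1#3 and shNRP1#3 do not. Groups held 3 libraries, except SUM159PT siNRP1#5 and HS578T shNRP1#3 with 2. The shRNA replicates were consecutive passages of transduced cells, so their spread is that between passages of a culture. The siRNA and shRNA arms differ in delivery, selection and harvest time together, and these cannot be told apart.

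AP-1 is a dimer of basic leucine zipper proteins. JUN, JUNB and JUND pair with each other or with the FOS proteins, and ATF3 and the small MAF protein MAFF are zipper proteins that also join such dimers. FOS, FOSB, EGR1 and ATF3 are immediate early genes, transcribed within minutes of a growth factor or stress signal from transcription factors already in the cell and then switched off again, whereas FOSL1 and FOSL2 (FRA-1 and FRA-2) are commonly held up for longer in invasive mesenchymal cancer cells. EGR1 is a zinc finger factor and no part of AP-1.

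On GRCh38 with the GENCODE 44 annotation, FOS lies on the plus strand at chr14:75278826-75282230, FOSB at chr19:45467995-45475179 and FOSL2 at chr2:28392448-28417317. FOSL1 lies on the minus strand at chr11:65892049-65900573. JUN is on the minus strand at chr1:58776845-58784048, JUNB on the plus strand at chr19:12791486-12793315 and JUND on the minus strand at chr19:18279694-18281622. EGR1 occupies chr5:138465479-138469303, ATF3 chr1:212565334-212620777 and MAFF chr22:38200767-38216507, all on the plus strand.

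The 350 bases before the start of each gene's canonical transcript were searched on both strands for the CArG box, which serum response factor binds, and for the cyclic AMP response element TGACGTCA, its relatives TTACGTCA, TGACATCA and TTACCTCA, and the AP-1 element TGACTCA. A CArG box was present in 1.69% of 20044 protein-coding genes' windows of that length, and EGR1, FOS and FOSB held one or more. The stretches that hold these elements are shown because the levels of EGR1, FOS and FOSB are followed below, with CArG boxes, and in FOSB also the cyclic AMP response element, in capitals. They are read 5′ to 3′ along the gene's strand from chr5:138465359-138465418, chr14:75278498-75278537 and chr19:45467661-45467740, all on the plus strand.
EGR1: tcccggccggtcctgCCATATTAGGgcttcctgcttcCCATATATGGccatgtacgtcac
FOS: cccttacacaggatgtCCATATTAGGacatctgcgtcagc
FOSB: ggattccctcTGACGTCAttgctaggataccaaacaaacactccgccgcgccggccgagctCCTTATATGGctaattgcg

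Counted from the transcript start, the EGR1 boxes began at -105 and -83, the FOS box at -314 and the FOSB box at -274. The element TGACGTCA, in 2.69% of all windows, was found before FOSB, JUND and MAFF. TTACGTCA (0.534% of windows) was found before ATF3 and FOSB, and TGACATCA (2.26%) and TTACCTCA (0.758%) before JUN. The AP-1 element TGACTCA, in 4.18% of windows, was in none of the 10 windows, and the windows of FOSL1, FOSL2 and JUNB held none of the 6 motifs. The stretches around the elements of ATF3, MAFF, JUND and JUN are shown because these genes carry most of the comparisons between groups, with the element in capitals. They come from chr1:212608651-212608697 and chr22:38201914-38201963 on the plus strand and from chr19:18281793-18281842 and chr1:58784088-58784137 on the minus strand.
ATF3: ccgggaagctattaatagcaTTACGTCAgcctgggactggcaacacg
MAFF: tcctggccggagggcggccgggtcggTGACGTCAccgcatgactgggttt
JUND: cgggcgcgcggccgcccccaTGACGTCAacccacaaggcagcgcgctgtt
JUN: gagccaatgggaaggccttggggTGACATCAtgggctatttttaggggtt

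Expected counts per library totalled 25310443 to 72003442, and the 10 genes had at least 18 expected counts in every library, the lowest being FOSB. NRP1 itself was lower than its control in all 12 knockdowns, with log2 fold changes from -4.88 to -0.70, and passed the test in 11, HS578T shNRP1#3 being the exception (log2 fold change -1.59, adjusted p = 0.0690, edgeR). Levels are given as library-scaled counts (CPM) unless TPM is named. The tight-junction gene CLDN4 was at 0.740 to 33.2 CPM in SUM159PT (median 1.80), 0.450 to 51.5 in HS578T (median 3.18) and 61.9 to 292 in MDA-MB-231 (median 146). CLDN4 was thus not uniformly low under the claudin-low label. The other adhesion genes CLDN3, CLDN7, EPCAM and CDH1 had medians of 4.99, 22.3, 16.8 and 0.694 CPM in MDA-MB-231. In SUM159PT and HS578T the highest of their medians was 0.524 CPM (CLDN7 in HS578T). VIM, the mesenchymal filament vimentin, was at 1519 CPM or above in every library, and the T-cell gene CD3E was at most 0.0596 CPM. In SUM159PT the leukocyte gene PTPRC stood at 1.38 to 23.4 CPM and the endothelial gene PECAM1 at 7.79 to 56.4. Markers of another line were raised in several groups. Genes expressed in MDA-MB-231 but hardly in HS578T stood at 13.3 to 24.8% of their MDA-MB-231 level in the HS578T siNRP1#5 libraries and at 2.57 to 7.42% in HS578T siNRP1#3, against 0.691 to 2.19% in HS578T siNT. SUM159PT markers stood at 1.65 to 8.72% in HS578T siNRP1#5, and in MDA-MB-231 shNRP1#3 replicate 3 those of SUM159PT were at 2.48% and those of HS578T at 2.05%. The source of these counts was not tested. For HS578T siNRP1#3 and siNRP1#5, calls printed for members and other pathway genes are also given after subtracting the profiles of the other lines. Unless the larger set of markers is named, the subtraction used a stricter set with only 3 MDA-MB-231 markers for HS578T. By that stricter set the MDA-MB-231 share was 12.0 to 22.6% in siNRP1#5, 1.92 to 6.69% in siNRP1#3 and 0.644 to 1.18% in siNT.

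Which members the lines express without NRP1 knockdown was read from the 6 non-targeting controls of each line on the TPM scale, which allows for gene length. In MDA-MB-231 FOSL1 stood far above the rest, at 341 to 651 TPM with a median of 416. In HS578T FOSL1 also had the highest mean, at 77.4 to 224 TPM, with JUND next at 62.2 to 165 TPM and overlapping it. In SUM159PT the AP-1 partner JUNB led instead, at 97.7 to 369 TPM, and FOSL1 spread from 32.9 to 184 TPM.

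FOS and FOSB made up a small part of the FOS family in the controls. FOSB stayed between 0.190 and 1.58 TPM in the controls of all 3 lines. FOS reached 2.45 to 11.5 TPM in SUM159PT and at most 2.69 TPM in MDA-MB-231 and 2.23 TPM in HS578T. Over all libraries of a line, FOSL1 made up a median of 87.4% of the summed FOS-family TPM in MDA-MB-231, 69.4% in HS578T and 58.3% in SUM159PT, where FOSL2 followed with 34.8%. Within the JUN family the median shares in SUM159PT were 50.3% for JUNB, 34.7% for JUND and 11.6% for JUN. In MDA-MB-231 they were 16.9% for JUNB, 47.6% for JUND and 34.6% for JUN, so JUNB was the lowest there. TPM rests on how reads were divided among transcripts: a median of 59.9% of JUN was assigned to JUN-202, annotated as a target of nonsense-mediated decay, and JUN-201 and JUN-203 were given identical percentages in every summary (20.1% each).

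**Figure D1:**
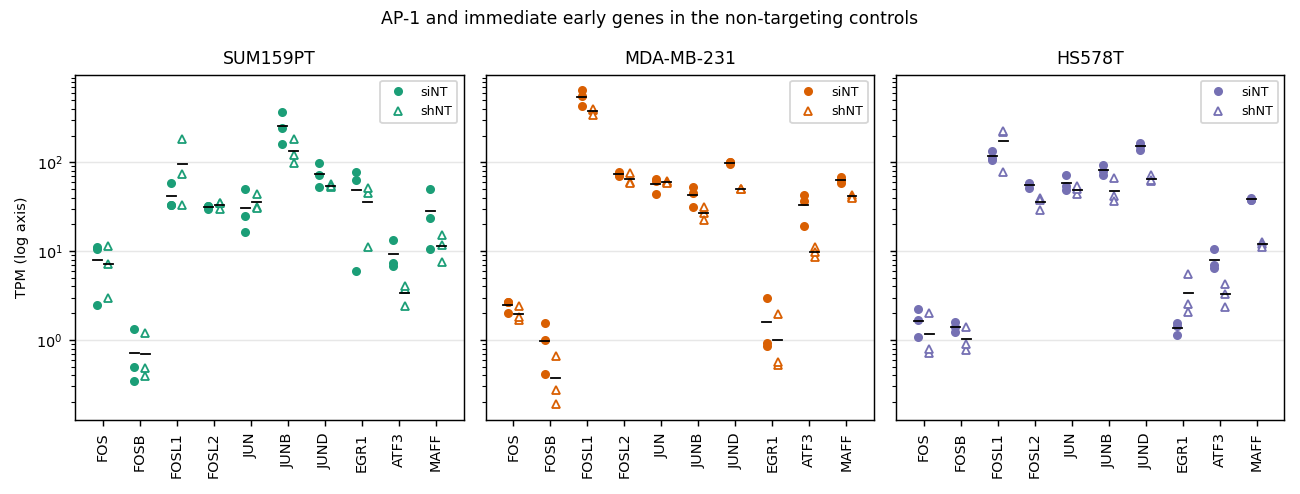
TPM (log axis) of each gene in the siNT (filled circles) and shNT (open triangles) libraries of each line, with a horizontal bar at the mean of each group of 3. FOSL1 lies at 341 to 651 TPM in MDA-MB-231, JUNB leads in SUM159PT, and no shNT library of ATF3 reaches a siNT library of its line.

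Between lines, 8 of the 10 genes differed in the non-targeting controls of SUM159PT and MDA-MB-231 (59.4% of all genes tested), 7 between HS578T and MDA-MB-231 (70.2% of all genes) and 9 between HS578T and SUM159PT (63.5%), shares that stand beside a background of a like height. EGR1 had the widest gap. In CPM, SUM159PT siNT libraries held 160, 231 and 14.8 of EGR1 and shNT libraries 109, 120 and 26.6, whereas MDA-MB-231 stayed between 0.966 and 5.76 and HS578T between 3.97 and 19.2. Only the lowest SUM159PT library fell within the HS578T range, and none within that of MDA-MB-231. EGR1 was 44.5-fold higher in SUM159PT than in MDA-MB-231 (log2 fold change 5.48 ± 0.71 SE, adjusted p = 2.53e-08, edgeR).

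FOS, which shares the CArG box with EGR1, was 4.74-fold higher in SUM159PT than in MDA-MB-231 (log2 fold change 2.24 ± 0.44, adjusted p = 3.04e-05). JUNB was 7.19-fold higher (2.85 ± 0.30, adjusted p = 9.31e-11). FOSL1 went the other way and was 5.46-fold lower in SUM159PT (-2.45 ± 0.41, adjusted p = 3.65e-06). HS578T held most of FOSB, 3.43-fold more than MDA-MB-231 (1.78 ± 0.34, adjusted p = 1.70e-05), and of JUND, 2.39-fold more (1.26 ± 0.20, adjusted p = 6.28e-07). ATF3, a stress-induced factor, was highest in MDA-MB-231, 2.01-fold above HS578T (adjusted p = 0.000167) and 2.38-fold above SUM159PT (adjusted p = 1.04e-05).

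In the order of the 6 control groups by mean CPM, many neighbours overlapped. FOSL1 was highest in MDA-MB-231 siNT at 532 ± 90.3 CPM (SD, n = 3), apart from all others, while the remaining 5 groups each overlapped the next, down to SUM159PT siNT at 54.5 ± 26.4. JUND was highest in HS578T siNT at 174 ± 9.14 CPM, above and apart from SUM159PT siNT at 72.7 ± 25.1, and lowest in MDA-MB-231 shNT at 30.9 ± 1.45, apart from its neighbour SUM159PT shNT at 42.3 ± 1.54. FOSL2 varied least, from 313 ± 21.1 CPM in MDA-MB-231 siNT to 163 ± 14.1 in SUM159PT shNT, with a gap only between MDA-MB-231 shNT and HS578T shNT.

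Between the 2 kinds of control, each member called was lower in shNT. In shNT against siNT, 6 of 10 genes were called and all 6 were lower in MDA-MB-231 (20.6% of all genes), 3 lower in HS578T (17.9%) and 2 lower in SUM159PT (14.4%), and no member was called higher. EGR1 in HS578T stood higher in shNT without passing (1.31 ± 0.47, adjusted p = 0.0644, edgeR) and passed by DESeq2 (1.34, adjusted p = 0.0279) and when low-count genes were kept in (adjusted p = 0.00368). FOSL1 stood at 0.98 in SUM159PT (adjusted p = 0.383), where it passed with low-count genes kept (1.04, adjusted p = 0.00141), and at 0.50 in HS578T (adjusted p = 0.466). The median log2 fold change of the 10 members was -0.80, -0.64 and -0.60 in the same order of lines, beside -0.00532, -0.000388 and -0.033 over all genes tested. ATF3 was called in every line. Its CPM was 40.3, 41.2 and 20.9 in MDA-MB-231 siNT against 7.47, 11.0 and 8.16 in shNT. In HS578T it was 12.4, 18.1 and 12.9 against 6.88, 5.28 and 3.30. SUM159PT gave 10.8, 23.7 and 8.33 against 2.96, 4.07 and 4.18. No shNT library reached any siNT library of its line, and the log2 fold changes were -1.97 ± 0.23, -1.48 ± 0.27 and -1.96 ± 0.42 (adjusted p = 1.50e-05, 0.00236 and 0.00978).

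JUND, the constitutive JUN protein, was likewise called lower in each line. The shNT libraries held 29.7, 32.5 and 30.6 CPM in MDA-MB-231, 73.0, 72.3 and 62.1 in HS578T and 43.95, 40.9 and 41.9 in SUM159PT. The siNT libraries held 62.2, 73.1 and 68.7, then 170, 185 and 168, and then 54.1, 101 and 62.7. The log2 fold changes were -1.16 ± 0.18, -1.32 ± 0.37 and -0.81 ± 0.24 (adjusted p = 0.000148, 0.0216 and 0.0337, edgeR). In fits without 1 library the call was lost in 4 of 6 in SUM159PT (without any shNT replicate, or without siNT replicate 2, where it was -0.51 with an adjusted p of 0.146) and in 4 of 6 in HS578T (adjusted p up to 0.0814). MAFF was called lower in MDA-MB-231 (-0.80 ± 0.21, adjusted p = 0.0108) and HS578T (-1.70 ± 0.28, adjusted p = 0.00137), and in SUM159PT it stood at -1.56 ± 0.51 with an adjusted p of 0.0512. FOSL1 (-0.69 ± 0.13, adjusted p = 0.00133), FOSB (-1.52 ± 0.48, adjusted p = 0.0326) and JUNB (-0.86 ± 0.29, adjusted p = 0.0437) were called in MDA-MB-231, and in fits without 1 library that of FOSB was lost in 4 of 6 (adjusted p up to 0.178) and that of JUNB in 5 of 6 (adjusted p up to 0.152). The replicate numbers paired the MDA-MB-231 controls, and with the pairing as a replicate block FOSL2 (-0.38, adjusted p = 0.0407) and FOS (-0.56, adjusted p = 0.0468) passed too, for 8 genes.

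Across the 12 comparisons of an NRP1 knockdown with its own control, the 10 genes gave 120 tests, of which 19 passed (8 higher, 11 lower), beside 11.3% of all gene tests in these comparisons. No member moved in one direction throughout. FOSL2 was called in 4 knockdowns, each time lower, and ATF3 in 4, higher in 3 of HS578T and lower in 1 of SUM159PT. JUN, JUNB, JUND and MAFF were called in 2 each, FOSB, FOSL1 and EGR1 in 1 each and FOS in none. The siRNA knockdowns of a line share their siNT libraries, and the shRNA knockdowns their shNT libraries, so calls of the #3 and #5 sequences are not independent of each other. These are bulk libraries, in which fewer cells carrying a transcript and less transcript per cell cannot be told apart.

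**Figure D2:**
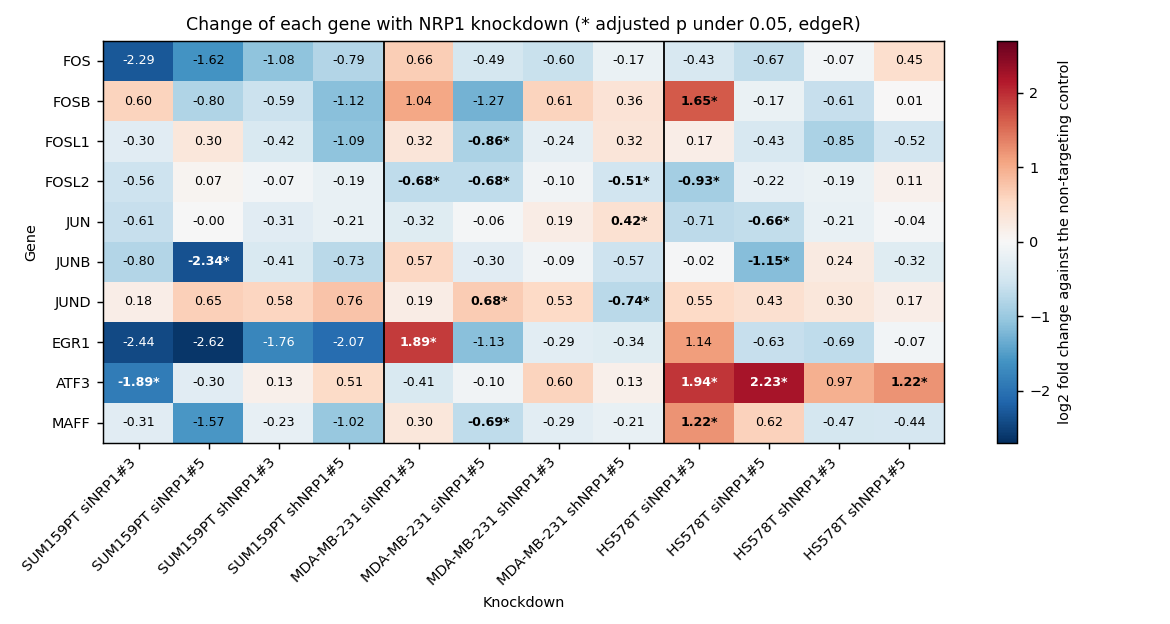
Log2 fold change of each gene (rows) in each NRP1 knockdown (columns) against the non-targeting control of the same line and arm, red for higher and blue for lower, with an asterisk where the adjusted p was under 0.05. ATF3 runs from -1.89 in SUM159PT siNRP1#3 to 2.23 in HS578T siNRP1#5, and the shNRP1#3 columns hold no call.

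HS578T showed the clearest response, and it was one of ATF3. With siNRP1#3, 4 genes were called against 4.65% of all genes: ATF3, FOSB and MAFF higher and FOSL2 lower. With siNRP1#5, 3 were called against 18.7% of all genes: ATF3 higher, JUN and JUNB lower. ATF3 was at 70.9, 54.6 and 40.6 CPM with siNRP1#3 and at 68.5, 56.0 and 79.2 with siNRP1#5, against 12.4, 18.1 and 12.9 in siNT. Every knockdown library lay above every control library. The change was 3.83-fold for siNRP1#3 (log2 fold change 1.94 ± 0.27 SE, adjusted p = 0.000714, edgeR) and 4.68-fold for siNRP1#5 (2.23 ± 0.27, adjusted p = 0.000136). Both calls held in all 6 fits without 1 library. After subtraction of the other lines' profiles ATF3 stood at 1.99 (adjusted p = 0.00105) and 2.48 (adjusted p = 8.72e-05).

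The shRNA arm of HS578T started from less ATF3 and moved the same way by smaller amounts. shNT held 6.88, 5.28 and 3.30 CPM, shNRP1#5 12.0, 13.1 and 10.9 and shNRP1#3 10.3 and 10.1. Neither knockdown overlapped the control. With shNRP1#5 ATF3 was the only member called (0.946% of all genes, log2 fold change 1.22 ± 0.27, adjusted p = 0.0389, edgeR). The call held in only 1 of 6 fits without 1 library (adjusted p 0.0489 to 0.191) and not after subtraction (adjusted p = 0.0686). DESeq2, which called more of all genes in this comparison, also called ATF3 (1.17, adjusted p = 0.00258). With shNRP1#3 no member was called (0.0356% of all genes), 1 had an unadjusted p under 0.05 by edgeR and DESeq2 also called none, and ATF3 stood at 0.97 ± 0.29 with an adjusted p of 0.369. The siNRP1#5 change minus the shNRP1#5 change of ATF3 was 1.01 ± 0.37 (adjusted p = 0.244), and no member passed that test in HS578T (0.854% of all genes, 2 members at an unadjusted p under 0.05 by edgeR, the one tool run).

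FOSB, otherwise scarce, rose with siNRP1#3 in HS578T. It was at 17.8, 15.4 and 13.4 CPM against 4.73, 6.04 and 4.10 in siNT, with no overlap, and changed 3.13-fold (log2 fold change 1.65 ± 0.31, adjusted p = 0.00603). With siNRP1#5 it stayed at 4.63, 4.90 and 3.72 CPM, within the control range at its upper 2 values and with a log2 fold change of -0.17. MAFF was at 256, 159 and 248 CPM with siNRP1#3 and at 184, 108 and 147 with siNRP1#5, against 84.2, 98.1 and 103 in siNT. Both groups lay above the controls. The siNRP1#3 change was 1.22 ± 0.28 (adjusted p = 0.0188) and that of siNRP1#5 0.62 ± 0.27 (adjusted p = 0.122). The MAFF call was lost in 4 of 6 fits without 1 library (adjusted p up to 0.0866), while that of FOSB held in all 6, and after subtraction both calls held (adjusted p = 0.0217 and 0.00963).

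The members called lower in HS578T rested on smaller margins. FOSL2 was at 125, 129 and 209 CPM with siNRP1#3 against 258, 275 and 346 in siNT, without overlap (-0.93 ± 0.24, adjusted p = 0.0354), and the call was lost in 5 of 6 fits without 1 library (adjusted p up to 0.159) but held after subtraction (-0.96, adjusted p = 0.0412). JUN, the founding AP-1 protein, was at 126, 110 and 116 CPM with siNRP1#5 against 155, 161 and 240 (-0.66 ± 0.22, adjusted p = 0.0440). JUNB was at 79.8, 59.2 and 69.7 CPM against 136, 142 and 185 (-1.15 ± 0.35, adjusted p = 0.0321). Neither overlapped its control. Each of these calls was lost in 5 of 6 fits without 1 library (adjusted p up to 0.226 and 0.116), and both were lost after subtraction of the other lines' profiles (adjusted p = 0.0846 and 0.0586). After that subtraction FOSL1, the gene with the highest level in MDA-MB-231, was called lower in siNRP1#5 at -1.88 (adjusted p = 0.0382), against -0.43 before it. With the larger set of markers, taken on control means, the subtraction brought EGR1 in siNRP1#5 to 0 counts, where it was then called lower (adjusted p = 0.000126).

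**Figure D3:**
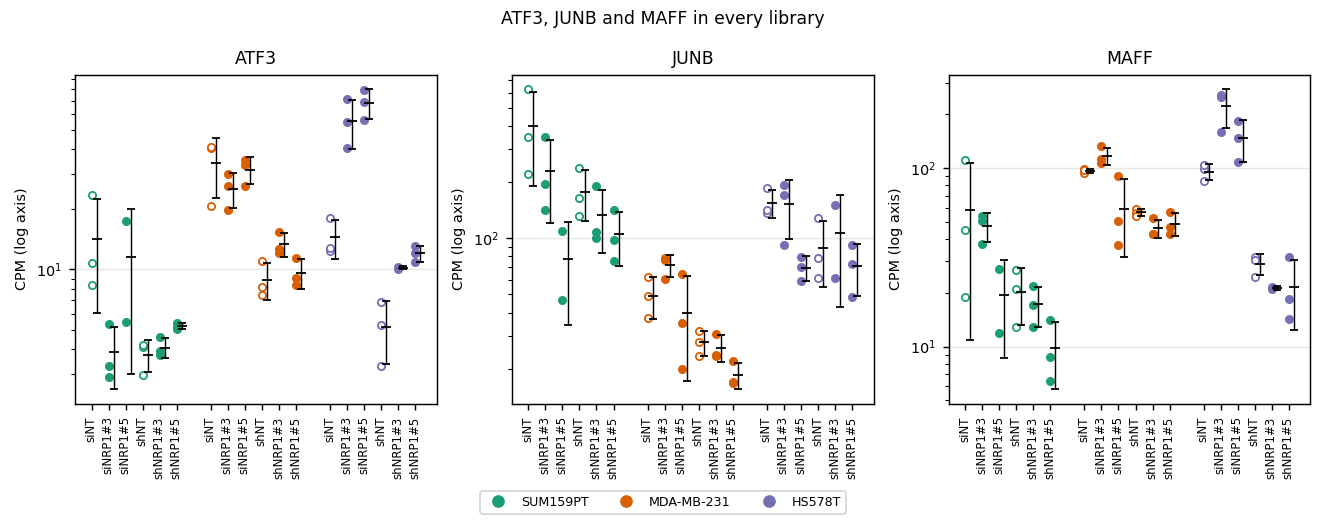
CPM (log axis) of ATF3, JUNB and MAFF in every library, with open circles for non-targeting controls, filled circles for NRP1 knockdowns, and the mean with its SD beside each group (n = 3, or 2 for SUM159PT siNRP1#5 and HS578T shNRP1#3). ATF3 lies at 40.6 to 79.2 CPM in the HS578T siRNA knockdowns, above the 12.4 to 18.1 of their controls, and below its controls in SUM159PT siNRP1#3.

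MDA-MB-231 showed changes in the FOS-like pair FOSL1 and FOSL2 and in JUND. With siNRP1#3, 2 members were called against 25.7% of all genes (FOSL2 lower, EGR1 higher), and with siNRP1#5, 4 against 29.4% (FOSL1, FOSL2 and MAFF lower, JUND higher). With shNRP1#5, 3 were called against 20.7% (FOSL2 and JUND lower, JUN higher). None was called with shNRP1#3 (3.65% of all genes), where 3 had an unadjusted p under 0.05 by edgeR and DESeq2 also called none. With so many genes called in this line, these counts stand near the background and say nothing about the members as a group.

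FOSL2 fell with 3 of the 4 knockdowns in MDA-MB-231, of which siNRP1#5 and shNRP1#5 carry the same sequence. Against 293, 312 and 335 CPM in siNT it stood at 191, 170 and 216 with siNRP1#3 and at 189, 165 and 225 with siNRP1#5. Against 290, 229 and 221 in shNT it stood at 181, 169 and 166 with shNRP1#5. None of these groups overlapped its control. The log2 fold changes were -0.68 ± 0.13, -0.68 ± 0.13 and -0.51 ± 0.13 (adjusted p = 0.000945, 0.000703 and 0.0102, edgeR). Both siRNA calls held in all 6 fits without 1 library, and that of shNRP1#5 was lost without shNT replicate 1 (-0.38, adjusted p = 0.0650). With shNRP1#3 FOSL2 was at 250, 229 and 208 CPM, inside the control range or just under it (log2 fold change -0.10). In HS578T siNRP1#3 the change was -0.93 (above), and in SUM159PT siNRP1#3 110, 111 and 125 CPM lay under the 170, 178 and 163 of siNT (-0.56 ± 0.20, adjusted p = 0.0872), short of the threshold.

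FOSL1 and JUND gave opposite changes with siNRP1#5 and with shNRP1#5, which carry the same sequence. NRP1 itself fell further with siNRP1#5 (log2 fold change -4.88) than with shNRP1#5 (-1.05) in this line. FOSL1 was at 281, 302 and 284 CPM with siNRP1#5 against 605, 561 and 431 in siNT, and at 427, 398 and 429 with shNRP1#5 against 349, 357 and 302 in shNT. The siRNA libraries lay under their controls and the shRNA libraries above theirs. The log2 fold changes were -0.86 ± 0.14 (adjusted p = 8.72e-05) and 0.32 ± 0.13 (adjusted p = 0.0939), and their difference was -1.19 ± 0.19 (adjusted p = 0.000198). JUND was at 89.2, 92.3 and 142 CPM with siNRP1#5 against 62.2, 73.1 and 68.7, and at 24.8, 15.3 and 15.3 with shNRP1#5 against 29.7, 32.5 and 30.6. Here the siRNA libraries lay above and the shRNA libraries under their controls. The changes were 0.68 ± 0.17 (adjusted p = 0.00584) and -0.74 ± 0.18 (adjusted p = 0.00627), and they differed by 1.42 ± 0.25 (adjusted p = 0.000392). These were the 2 members that passed that test in MDA-MB-231 (23.7% of all genes), and both calls held in all 12 fits without 1 library. The matching differences in SUM159PT gave no call among the members (2.51% of all genes), with 1 at an unadjusted p under 0.05 by edgeR, the one tool run. In MDA-MB-231 shNRP1#3, of the same arm as shNRP1#5, FOSL1 at 257 to 298 CPM lay under every shNT library. JUND at 43.2 to 46.0 CPM lay above every shNT library there. Neither was called, and both had the direction of siNRP1#5 and not of shNRP1#5.

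**Figure D4:**
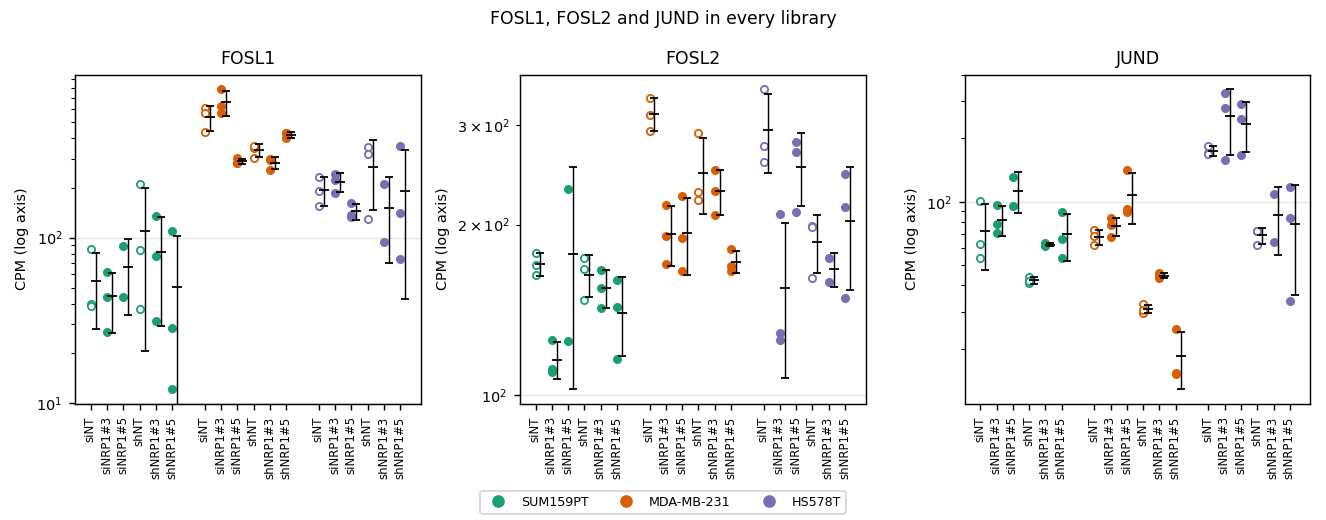
CPM (log axis) of FOSL1, FOSL2 and JUND in every library, drawn with open circles for non-targeting controls, filled circles for NRP1 knockdowns and the mean with its SD beside each group (n = 3, or 2 for SUM159PT siNRP1#5 and HS578T shNRP1#3). In MDA-MB-231 FOSL1 falls to 281 to 302 CPM with siNRP1#5 and stands at 398 to 429 with shNRP1#5, and JUND moves the other way. The lower SD bar of FOSL1 in SUM159PT shNRP1#5 is cut at the axis.

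EGR1 rose in MDA-MB-231 with siNRP1#3, at 15.4, 7.55 and 11.5 CPM against 5.76, 1.81 and 1.91 in siNT. The groups did not overlap, and the change was 3.70-fold (1.89 ± 0.52, adjusted p = 0.0139). The call was lost in 3 of 6 fits without 1 library (adjusted p up to 0.0635) and after subtraction of the other lines' profiles (1.94 ± 0.79, adjusted p = 0.0923). The fold change kept its size there, while its SE was larger than the 0.52 before subtraction, and the cause was not tested. The other lines' markers stood at no more than 0.147% of their own level in these siNRP1#3 libraries and 0.469% in siNT. FOS at 3.30 to 4.77 CPM, FOSB at 3.10 to 4.68 and MAFF at 107 to 132 also lay above every siNT library with siNRP1#3. None of these passed by edgeR, and FOS passed by DESeq2 (0.67, adjusted p = 0.0472). The other uncalled members overlapped their controls. With siNRP1#5 EGR1 was at 2.05, 1.02 and 1.18 CPM (-1.13, not called). The replicate numbers paired siNRP1#5 with siNT in MDA-MB-231, and in the replicate block fit EGR1 (-1.04, adjusted p = 0.0166) and FOSB (-1.25, adjusted p = 0.0109) were also called lower, for 6 members. MAFF was at 50.2, 37.2 and 90.2 CPM with siNRP1#5 against 98.0, 93.1 and 97.6 (-0.69 ± 0.21, adjusted p = 0.0178), 1 library lying close under the controls, and the call was lost in 3 of 6 fits without 1 library (adjusted p up to 0.0957). JUN was at 142, 142 and 140 CPM with shNRP1#5 against 107, 109 and 101 in shNT (0.42 ± 0.13, adjusted p = 0.0295), without overlap, yet the call held in none of the 6 such fits (adjusted p 0.0621 to 0.113).

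SUM159PT had the fewest calls and the widest spread. With siNRP1#3, 1 member was called against 8.66% of all genes (ATF3, lower), and with siNRP1#5, 1 against 17.9% (JUNB, lower). With shNRP1#3 and shNRP1#5 none was called (1.40 and 5.94% of all genes), with 1 member at an unadjusted p under 0.05 in each by edgeR (JUND in both), and DESeq2 called 0 and 1. ATF3 was at 2.89, 5.34 and 3.30 CPM with siNRP1#3 against 10.8, 23.7 and 8.33 in siNT. The groups did not overlap, and the change was 3.70-fold lower (log2 fold change -1.89 ± 0.42, adjusted p = 0.0109). The call was lost in 3 of 6 fits without 1 library (adjusted p up to 0.0682). With siNRP1#5 the 2 libraries held 17.5 and 5.48 CPM of ATF3, 1 within the control range and 1 below it (-0.30, not called).

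JUNB was at 109 and 46.9 CPM with siNRP1#5 against 349, 625 and 220 in siNT, with no overlap, and changed 5.07-fold (-2.34 ± 0.54, adjusted p = 0.00859). Without siNRP1#5 replicate 3, the call was lost (-1.85, adjusted p = 0.0747). With siNRP1#3 it was at 196, 348 and 141 CPM, overlapping the controls (-0.80, not called). JUND was at 61.6, 63.4 and 62.7 CPM with shNRP1#3 and at 66.7, 89.2 and 54.3 with shNRP1#5 against 43.95, 40.9 and 41.9 in shNT. Both groups lay above the controls, with log2 fold changes of 0.58 ± 0.24 (adjusted p = 0.317) and 0.76 ± 0.24 (adjusted p = 0.0751) that did not pass.

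EGR1 and FOS stood lower on average in every SUM159PT knockdown, by log2 fold changes of -2.62 to -1.76 for EGR1 and -2.29 to -0.79 for FOS, and none of these 8 changes was called. Each of these knockdown groups overlapped its control. The siNT libraries held 160, 231 and 14.8 CPM of EGR1 and 14.9, 17.4 and 3.28 of FOS. With siNRP1#3 they held 17.1, 53.6 and 3.87 of EGR1 and 2.43, 3.65 and 1.17 of FOS. The library numbered 3 was the lowest of its group in all 6 SUM159PT groups for both genes, and in 5 of 6 for JUNB. Replicate numbers paired siNRP1#3 with siNT in SUM159PT, and with the replicate block EGR1 (-2.40, adjusted p = 0.0264) and FOS (-2.11, adjusted p = 0.00634) were called lower beside ATF3, for 3 members. What the numbers stand for is not stated in the labels. Over the means of the 18 groups, centred within lines, EGR1 was the member most like FOS (Pearson r = 0.799, n = 18 groups, which share cell lines and controls).

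**Figure D5:**
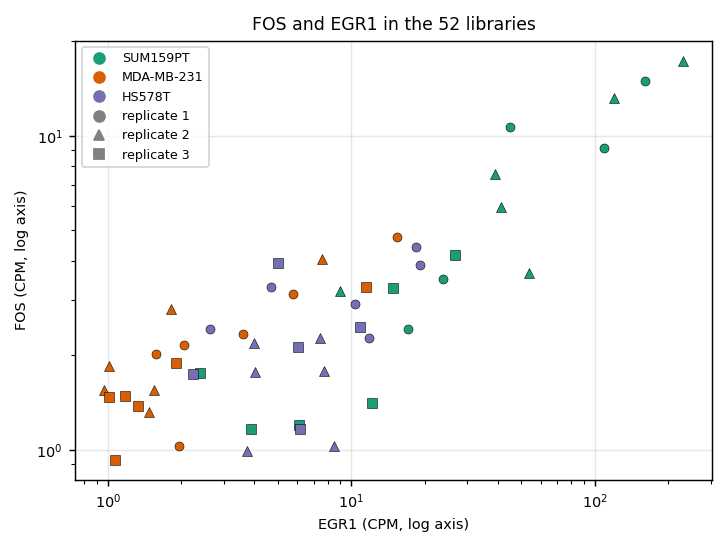
FOS against EGR1 in CPM (both axes log) in the 52 libraries, coloured by line, with the marker giving the replicate number. In SUM159PT the squares (replicate 3) lie lowest within each group for both genes, down to 2.39 CPM of EGR1, while replicates 1 and 2 reach 231 CPM.

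Whether the response itself differed among the 3 lines was tested for each sequence in a model over all 52 libraries, with the fold changes given here from the models of each line. For siNRP1#3, 1 member passed (3.42% of all genes): ATF3, with log2 fold changes of 1.94 in HS578T, -0.41 in MDA-MB-231 and -1.89 in SUM159PT (adjusted p = 9.28e-06, edgeR). For siNRP1#5, 3 passed (18.2% of all genes). ATF3 was at 2.23, -0.10 and -0.30 in the same order (adjusted p = 0.000117), JUNB at -1.15, -0.30 and -2.34 (adjusted p = 0.0402) and MAFF at 0.62, -0.69 and -1.57 (adjusted p = 0.0144). Both ATF3 calls held when any one replicate number was left out (adjusted p up to 0.0436 and 0.0197). JUNB and MAFF were each called in only 1 of these 3 fits, and JUNB was lost after subtraction of the other lines' profiles (adjusted p = 0.0731). For shNRP1#3 and shNRP1#5 none was called (0.747 and 3.81% of all genes), with 0 and 1 member at an unadjusted p under 0.05 by edgeR, the one tool run for these tests.

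Other genes of the pathway were taken from 4 lists, chosen with earlier results of these data known. The 12 knockdowns also share control libraries, so the shares of tests called describe the lists and are no independent support. Of 25 further immediate early genes, 24 were tested per line. In HS578T 8 were called higher and 0 lower with siNRP1#3 (4.65% of all genes called) and 9 higher and 0 lower with siNRP1#5 (18.7%), with list medians of 1.00 and 0.68 on the log2 scale against 0.03 and 0.03 for all genes. After subtraction 6 and 8 were called higher and 0 lower, beside 3.26 and 14.2% of all genes. SUM159PT siNRP1#3 gave 0 higher and 5 lower (8.66% of all genes), and MDA-MB-231 siNRP1#5 gave 9 higher and 2 lower (29.4%). Over the 12 knockdowns 19.8% of the list's tests were called, against 11.3% for all genes. In HS578T, with shNRP1#3 and shNRP1#5, none was called, where few of all genes were called either (0.0356 and 0.946%). KLF4, a zinc finger factor, was called in 6 of the 12 knockdowns, 2 higher and 4 lower, and reached -2.16 in SUM159PT siNRP1#3 (adjusted p = 0.000261). CCN2, a secreted matricellular protein, was called in 5, 4 of them higher, with 3.09 in HS578T siNRP1#3 (adjusted p = 0.000126; 3.17 and 0.000239 after subtraction). SGK1, a serum-induced kinase, was called higher in 5, from 0.63 in MDA-MB-231 siNRP1#3 to 1.39 in HS578T siNRP1#3, where it was 1.44 after subtraction (adjusted p = 0.0141).

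Of 19 other zipper partners and relatives, ATF4 was called in 4 knockdowns and DDIT3 in 3, all higher. ATF4 and DDIT3 belong to the integrated stress response, in which ATF3 also takes part. DDIT3 rose by 1.80 ± 0.24 and 2.36 ± 0.24 in HS578T siNRP1#3 and siNRP1#5 (adjusted p = 0.000466 and 3.68e-05), where ATF3 was called higher too, and ATF4 by 0.74 ± 0.20 and 0.66 ± 0.20 (adjusted p = 0.0425 and 0.0290). After subtraction these 4 calls held, DDIT3 at 1.86 and 2.68 (adjusted p = 0.000696 and 1.54e-05) and ATF4 at 0.79 and 0.91 (adjusted p = 0.0277 and 0.00451). The remaining calls were in MDA-MB-231, where ATF3 was not called. ATF4 was higher there with siNRP1#3 (0.50 ± 0.14, adjusted p = 0.0134, edgeR) and shNRP1#5 (0.42 ± 0.14, adjusted p = 0.0382). DDIT3 was higher with shNRP1#5 (0.86 ± 0.20, adjusted p = 0.00542). This list had 12.3% of its tests called over the 12 knockdowns, against 11.3% for all genes.

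Among 20 genes with described AP-1 sites, 24.6% of tests were called (39 higher, 18 lower), against 11.3% for all genes. HS578T siNRP1#3 gave 7 higher and 1 lower (4.65% of all genes called) and siNRP1#5 6 higher and 0 lower (18.7%), whereas SUM159PT siNRP1#5 gave 1 higher and 5 lower (17.9%). After subtraction the HS578T counts were 6 higher and 1 lower (3.26% of all genes) and 5 higher and 0 lower (14.2%). MMP9, a gelatinase, was called in 5 knockdowns and IL6, an inflammatory cytokine, in 4. IL6 changed by 3.55 ± 0.47 and 2.56 ± 0.45 in HS578T siNRP1#3 and siNRP1#5 and by -1.95 ± 0.42 in MDA-MB-231 siNRP1#5 and -2.69 ± 0.88 in SUM159PT siNRP1#5. Both HS578T calls of IL6 were lost after subtraction (3.84, adjusted p = 0.136, and 0.49, adjusted p = 0.816), and with the larger set of markers siNRP1#5 was called lower (adjusted p = 0.0218) while siNRP1#3 passed (5.91, adjusted p = 0.00616). MMP9 was called higher in 4 and lower in 1. It changed by 3.74 ± 0.44 in MDA-MB-231 siNRP1#5 (adjusted p = 1.16e-05), 3.17 ± 0.75 in SUM159PT siNRP1#5, 3.78 ± 0.83 in SUM159PT shNRP1#5 and 3.30 ± 0.85 in HS578T siNRP1#5 (3.47 after subtraction, adjusted p = 0.0368), and by -3.27 ± 0.92 in SUM159PT siNRP1#3. The 17 upstream regulators, mostly kinases of the MAPK cascades, had 11.5% of tests called (8 higher, 15 lower), near the 11.3% for all genes. MAP2K4, an activator of JNK, was called higher in 3 and MAP2K7, another, in 3 (1 higher, 2 lower). MAPK3, the kinase ERK1, was called lower in 2.

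The gene outside the members whose group means ran most like each member, over the 18 groups centred within lines and 14627 genes, was PER1 for MAFF (Pearson r = 0.981), ENSG00000288911 for FOSB (0.939), NRARP for ATF3 (0.936), TMEM184B for JUND (0.934), TRAF3IP2 for JUNB (0.909), RBM15B for JUN (0.855), SMTN for FOSL1 (0.854), SLCO3A1 for FOSL2 (0.835), TSPAN1 for EGR1 (0.795) and SLX1A for FOS (0.698). Among the members themselves MAFF and FOSB were each other's nearest (0.839), as were EGR1 and FOS, and JUND and ATF3 (0.809). The groups share cell lines and control libraries, and the best of many genes is named, so these values describe the 18 group means only.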

How the data were processed

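Libraries were poly(A)-selected and strand-specific. Per the labels and methods, the authors trimmed reads with Trim Galore 0.6.5, aligned them with STAR 2.7.2b to GRCh38 and quantified them with RSEM 1.3.3 (Ensembl 114 in the headers). The deposited gene values are expected counts (not scaled) and TPM, and the deposited isoform percent is the part of a gene's TPM that each transcript holds. The authors removed 2 samples as outliers, which were not analysed here. 0 columns were left without a sample.

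Expected counts were rounded and tested with edgeR 4.0.16 (filterByExpr, TMM, glmQLFit with robust = TRUE, glmQLFTest; R 4.3.3), with 1 model per cell line and 1 over all 52 samples, and Benjamini-Hochberg adjustment over all genes tested at 0.05. CPM are TMM-scaled. All 10 members passed the filter in every model. The SE is the log2 fold change divided by the root of the F statistic. Alternatives were DESeq2 1.42.0, RLE size factors, no filter, a replicate block, leaving out each library, and subtraction of the other lines' profiles at shares estimated from genes at most 0.5 CPM in the own line's and at least 20 CPM in the other line's controls. That rule left 3 MDA-MB-231 markers for HS578T, so shares from 59 markers taken on control means were added after seeing the data. The shares printed are those on control means unless the stricter set is named. Subtracted results use the first rule unless the larger set or markers by mean are named. Replicate numbers were taken to pair samples where the correlation of deviations from group means was over 0.1 in all 3 pairs, which held in 6 of 15 comparisons (0.17 to 0.78). No library was a copy of another (lowest chi-square per degree of freedom 11.0 over 50 replicate pairs). Members and lists were chosen with earlier results of these data known. Named list genes are those among the 3 called in the most knockdowns, and some are not reported here. The steps were tested on simulated data.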

Additional observations from a re-analysis of the deposited data

Results flagged for a closer look

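The response of 3 members differed among the cell lines by a test of the difference itself. Of all genes, 3.42% passed that test for siNRP1#3 and 18.2% for siNRP1#5. ATF3 differed with siNRP1#3 (adjusted p = 9.28e-06, edgeR) and with siNRP1#5 (adjusted p = 0.000117), JUNB with siNRP1#5 (adjusted p = 0.0402) and MAFF with siNRP1#5 (adjusted p = 0.0144). The HS578T siNRP1#5 libraries in the last 3 tests had MDA-MB-231 markers at 13.3 to 24.8% of their level in that line, whose source was not tested, and after subtraction of the other lines' profiles the adjusted p was 0.000142 for ATF3, 0.0731 for JUNB and 0.0140 for MAFF. Calls of JUNB and MAFF were also lost in some of the fits that left out a replicate number.

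In MDA-MB-231, the change with siNRP1#5 differed from that with shNRP1#5, which has the same sequence, for FOSL1 (adjusted p = 0.000198) and JUND (adjusted p = 0.000392). Of all genes, 23.7% passed this test. Delivery, selection and harvest time differ between the arms, and so did the loss of NRP1 in this line. NRP1 changed by a log2 fold change of -4.88 with siNRP1#5 and of -1.05 with shNRP1#5. These differences cannot be told apart. With shNRP1#3, also of the shRNA arm, both genes moved in the direction of siNRP1#5 without a call.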

How the results depend on the processing

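Counts of members called moved by over 1.5 times in these cases. Without the filter on low counts they became 5 in HS578T shNT against siNT, 2 in MDA-MB-231 shNRP1#3, 4 in MDA-MB-231 siNRP1#3, 1 in SUM159PT shNRP1#3, 4 in SUM159PT shNRP1#5, 5 in SUM159PT shNT against siNT, 4 in SUM159PT siNRP1#3, 4 in SUM159PT siNRP1#5, 2 for the siNRP1#5 change minus the shNRP1#5 change in SUM159PT, and 1, 3, 5 and 5 among lines for shNRP1#3, shNRP1#5, siNRP1#3 and siNRP1#5. The cause was not tested. DESeq2 called 1 in SUM159PT shNRP1#5, 4 in SUM159PT shNT against siNT and 2 in SUM159PT siNRP1#5. With RLE size factors none of the 25 counts moved that far, although FOSL1 between HS578T and MDA-MB-231 and JUNB in MDA-MB-231 shNT against siNT lost their calls (adjusted p = 0.0613 and 0.0525, edgeR). With the other lines' profiles subtracted, with either marker set, the count became 0 in HS578T shNRP1#5 and 1 in MDA-MB-231 siNRP1#3. With markers by mean it became 1 for the siNRP1#5 change minus the shNRP1#5 change in HS578T (EGR1, whose counts the subtraction took to 0).

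With the replicate block the counts became 5 in HS578T shNT against siNT, 5 in MDA-MB-231 siNRP1#3, 1 in SUM159PT shNRP1#5, 3 in SUM159PT siNRP1#3, 2 in SUM159PT siNRP1#5, 1 for the siNRP1#5 change minus the shNRP1#5 change in SUM159PT, and 1 and 3 among lines for shNRP1#5 and siNRP1#3. Of these, the numbers met the pairing criterion in SUM159PT siNRP1#3.

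Leaving out 1 library at a time, the counts ran from 0 to 1 in HS578T shNRP1#5, 2 to 4 in HS578T siNRP1#3, 1 to 3 in HS578T siNRP1#5, 1 to 2 in MDA-MB-231 shNRP1#5, 1 to 3 in MDA-MB-231 siNRP1#3, 2 to 4 for the siNRP1#5 change minus the shNRP1#5 change in MDA-MB-231, 0 to 1 in SUM159PT shNRP1#5, 1 to 4 in SUM159PT shNT against siNT, 0 to 1 in SUM159PT siNRP1#3, 0 to 2 in SUM159PT siNRP1#5 and 1 to 2 among lines for siNRP1#5. A lone library left in a group is assumed to vary like the other groups. No called change of a member turned its direction. Over all genes, the count in HS578T shNRP1#3 went from 7 to 252 without the filter and 146 by DESeq2, and in HS578T shNRP1#5 from 186 to 1076 and 1010. The count moved by over 1.5 times in 11 comparisons without the filter (1.72 to 36 times), 6 with DESeq2 (1.54 to 20.9 times), 5 with the block (1.51 to 2.57 times), 6 with the other lines' profiles subtracted (0.143 to 0.55 times), 2 with that subtraction and markers by mean (0 to 0.231 times), and in 78 fits without 1 library (0 to 1.99 times).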
